A study of Mus musculus with 6 samples.

Results

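The ephrins are the membrane-bound ligands of the Eph receptors, and all 8 ephrin genes of the mouse, 5 of the A class (Efna1 to Efna5) and 3 of the B class (Efnb1 to Efnb3), were picked out by gene symbol from a table of 55418 symbols. The data are 6 libraries of polyadenylated RNA from MOC2, a line of mouse oral squamous carcinoma cells that carries no papillomavirus. Of these, 3 came from untreated control CRISPR cells and 3 from untreated EphA4 knockout cells, which per the labels are the H3 clone, so that the knockout is a single clone. Differences that come with the edit and those particular to this clone therefore cannot be told apart. All libraries share 1 batch label. All 8 ephrin genes had enough counts to be tested.

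Ephrins carry a signal in both directions between touching cells. Ephrin-A proteins are held in the membrane by a glycosylphosphatidylinositol (GPI) anchor and bind mainly EphA receptors, whereas ephrin-B proteins cross the membrane, end in a cytoplasmic tail that binds PDZ-domain proteins, and bind mainly EphB receptors. EphA4 is known for binding ligands of both classes. In epithelia and carcinomas, ephrins take part in cell sorting, boundary formation and contact-dependent control of movement.

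The counts of the edited gene did not fall in the libraries labelled EphA4 knockout. Epha4 had 1907, 2110 and 2250 counts in the control libraries and 3483, 3815 and 3606 in those labelled knockout, which is higher in each. Counts summed over a gene hold no information on the edited stretch, so every direction here is that of the knockout-labelled libraries relative to control. Library totals ran from 35115926 to 41775031 counts. EphA4 knockout replicate 3 stood apart from the other 2 of its group: chi-square per degree of freedom was 31.7 and 30.9 against them, and 4.41 between them. Without it the same 7 ephrin genes were called, 3 higher and 4 lower (71.9% of all tested genes), and the log2 fold changes were -5.34 for Efna3, -3.70 for Efna2, -1.04 for Efna1, -0.61 for Efna4, 0.73 for Efna5, 1.08 for Efnb2, 1.14 for Efnb3 and, not called, -0.19 for Efnb1. The epithelial genes Krt8, Krt18, Epcam and Cdh1 were abundant in both groups, at 1339.9 ± 41.7, 843 ± 28.1, 954 ± 30.6 and 725 ± 6.85 CPM (counts of the gene per 1000000 counts of the library; SD, n = 3) in control. In the knockout-labelled libraries they had 1637 ± 22.8, 962 ± 40.5, 627 ± 15.9 and 799.6 ± 24.7 CPM (SD, n = 3). Of the 10 epithelial and squamous markers, 8 were tested, of which 5 rose (Krt8, Krt18, Cdh1, Sfn and Krt6a) and 3 fell (Epcam, Krt14 and Krt17). The squamous basal genes Krt5 and Trp63 had at most 2 counts in any library. Whether the libraries of a group stem from separate cultures is not stated in the labels, and the p-values therefore reflect a spread between libraries that may be technical only.

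Upstream sequences are shown for the 3 ephrin-A genes that lie together on chromosome 3 and fell, and for Efnb2, the most abundant ephrin, which rose. They come from RefSeq (build GRCm38.p6) and cover the 250 bases before a transcription start, all 4 on the minus strand, written 5′ to 3′. Capitals mark matches to the motifs listed after them. The windows are chr3:89322940-89323189 for Efna3, chr3:89280952-89281201 for Efna1, chr3:89338029-89338278 for Efna4 and chr8:8661243-8661492 for Efnb2.
Efna3: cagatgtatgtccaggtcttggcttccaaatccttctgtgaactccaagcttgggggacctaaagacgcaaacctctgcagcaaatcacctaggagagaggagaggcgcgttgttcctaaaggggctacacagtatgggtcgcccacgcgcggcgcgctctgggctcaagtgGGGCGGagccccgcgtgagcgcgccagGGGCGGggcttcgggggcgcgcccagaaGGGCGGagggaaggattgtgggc
Efna1: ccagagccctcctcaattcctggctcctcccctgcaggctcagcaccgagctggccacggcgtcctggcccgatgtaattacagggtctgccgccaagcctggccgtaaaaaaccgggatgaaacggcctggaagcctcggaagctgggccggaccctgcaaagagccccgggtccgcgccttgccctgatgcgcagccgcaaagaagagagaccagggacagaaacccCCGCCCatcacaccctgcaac
Efna4: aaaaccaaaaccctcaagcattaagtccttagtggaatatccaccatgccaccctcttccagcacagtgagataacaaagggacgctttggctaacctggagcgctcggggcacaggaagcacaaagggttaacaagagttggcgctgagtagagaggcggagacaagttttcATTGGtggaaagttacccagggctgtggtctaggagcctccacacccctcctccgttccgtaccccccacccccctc
Efnb2: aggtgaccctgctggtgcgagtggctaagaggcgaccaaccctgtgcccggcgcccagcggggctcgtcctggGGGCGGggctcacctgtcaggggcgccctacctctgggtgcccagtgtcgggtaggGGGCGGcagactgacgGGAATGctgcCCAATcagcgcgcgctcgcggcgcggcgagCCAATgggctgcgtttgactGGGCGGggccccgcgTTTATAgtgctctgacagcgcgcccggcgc
The motifs were searched on both strands over the 250 bases: the GC box GGGCGG (in 32.7% of 32851 RefSeq promoters), the CCAAT box (33.8%), the TATA box TATAAA (12.4%), the hypoxia response core ACGTG (16.6%), the E-box CACGTG, which contains that core (6.02%), the AP-1 site TGACTCA (4.46%), the interferon response element (2.98%), the TEAD site GGAATG (12.6%) and the RBPJ site TGGGAA (21.6%). The Efnb2 window held 3 GC boxes, 2 CCAAT boxes, 1 TEAD match and 1 match to the TATA box letters. That TATA match begins 30 bases before the start and reads TTTATA as written, so TATAAA lies on the opposite strand. The Efna3 window held 3 GC boxes and the Efna1 window 1, and neither held another of the motifs. The Efna4 window differed from these: it had 1 CCAAT box, no GC box, and 7 CpG dinucleotides, against 19 for Efna3, 16 for Efna1 and 27 for Efnb2. The median over all promoters was 6. Efna1 and Efna3 each have another start in the table, and of the 8 ephrin genes 7 were matched there. A match is a description of the letters and not evidence of binding.

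Of the 8 ephrin genes, 4 fell, 3 rose and 1 did not pass an adjusted p of 0.05 in edgeR's quasi-likelihood test. All 4 that fell are of the A class, and those that rose are Efna5, Efnb2 and Efnb3. Of all 15199 genes tested, 71.5% passed, 32.7% as higher and 38.8% as lower, so 7 of 8 is a share near the background. The libraries of the groups did not overlap for any of the 8 genes, against 76.1% of all tested genes. The median log2 fold change was -1.17 over the ephrin-A genes and 1.01 over the ephrin-B genes, beside -0.04 over all tested genes.

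**Figure D1:**
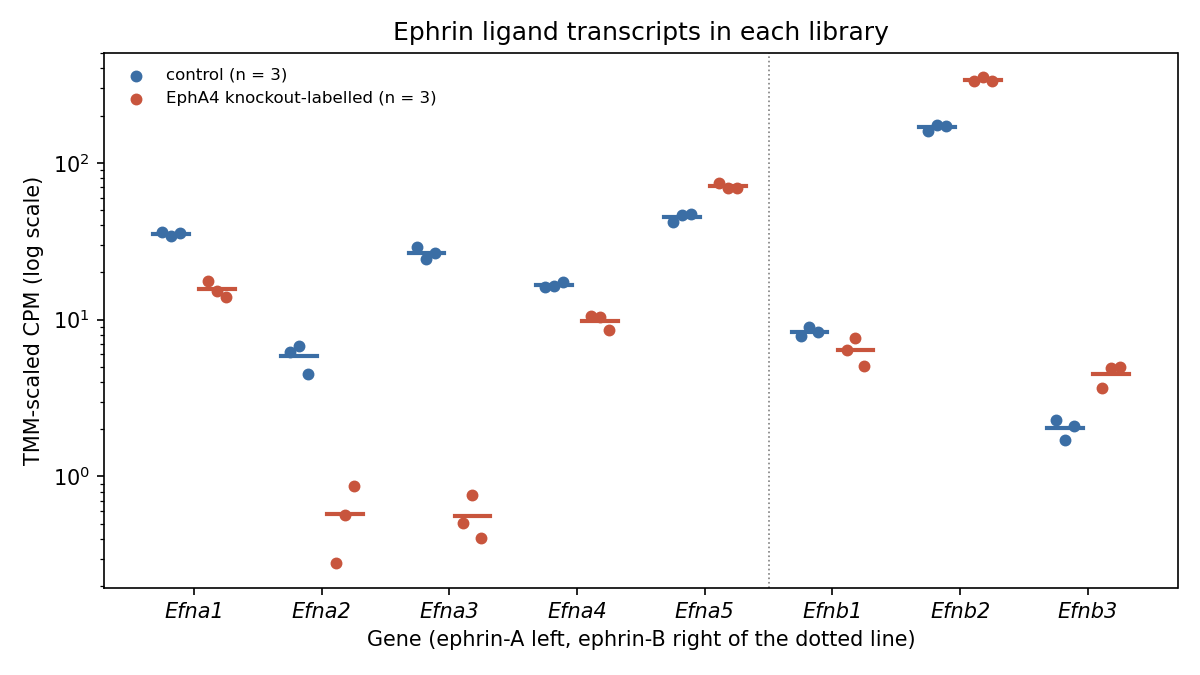
Transcript level of each ephrin gene in each of the 6 libraries, in CPM scaled by trimmed mean of M values (TMM) on a log axis. Points are libraries (control blue, knockout-labelled red) and lines are group means; no gene's groups overlap, and Efna3 shows the widest gap.

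Efna3 showed the deepest fall among the ephrins. Its counts were 1076, 861 and 1116 in the control libraries and 18, 28 and 15 in the knockout-labelled ones. Every knockout-labelled library was thus at a small fraction of the lowest control library. The level went from 26.7 ± 2.32 CPM to 0.557 ± 0.181 CPM (SD, n = 3 each), 48.0-fold lower, and the log2 fold change was -5.58 (SE of 0.21, adjusted p = 5e-08 in edgeR). Of all tested genes, 3.28% had a lower log2 fold change.

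Efna2, a ligand best known from axon mapping in the developing brain, had much lower levels to begin with. It had 231, 239 and 187 counts in control against 10, 21 and 32 in the knockout-labelled libraries. Levels were 5.83 ± 1.19 and 0.573 ± 0.296 CPM (SD, n = 3 each), 10.2-fold lower, and the log2 fold change was -3.34 (SE 0.41, adjusted p = 8.1e-05 in edgeR). The spread among the libraries of a group, as a coefficient of variation, was 20.5% in control and 51.6% in the knockout-labelled group, where counting alone would give 6.76% and 21.8%. Efna2 was the most variable ephrin in both groups.

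Efna1, the ligand most often described for EphA2 in epithelial cells, had 1343, 1198 and 1479 counts in control against 635, 561 and 516 in the knockout-labelled libraries. It fell from 35.2 ± 1.17 to 15.7 ± 1.90 CPM (mean ± SD, n = 3), 2.25-fold, on the log2 scale -1.17 (SE 0.09, adjusted p = 4.7e-06 in edgeR). Efna4 had 598, 582 and 719 counts in control against 376, 386 and 316 in the knockout-labelled libraries. It fell less, from 16.6 ± 0.574 to 9.86 ± 1.09 CPM, 1.69-fold (log2 fold change -0.75, SE 0.11, adjusted p = 0.00027 in edgeR). The falls of the 4 genes thus ran from 1.69-fold to 48.0-fold.

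Efna5, a strong repellent of growing axons and a ligand of several EphA receptors, was the only ephrin-A gene that rose. It had 1565, 1646 and 1952 counts in control against 2658, 2562 and 2522 in the knockout-labelled libraries. The level went from 45.2 ± 2.61 to 70.8 ± 3.09 CPM (SD, n = 3 each), 1.57-fold higher, on the log2 scale 0.65 (SE 0.06, adjusted p = 1.1e-05 in edgeR). Against a fold of 1.5 rather than 1, in glmTreat, which 36.0% of all tested genes passed, neither Efna5 nor Efna4 did (adjusted p = 0.13 and 0.067).

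Efnb2, the ligand of EphB4 that marks arterial endothelium, was the most abundant ephrin in every library. The control libraries held 5875, 6153 and 7179 counts and the knockout-labelled ones 11933, 12939 and 12201. The level went from 168 ± 8.59 to 339 ± 10.3 CPM (SD, n = 3 each), 2.01-fold higher (log2 fold change 1.01, SE 0.04, adjusted p = 1.4e-07 in edgeR). Defining endothelial genes were at or near 0: Emcn, Cldn5 and Erg had 0 counts in every library, and the summed level of 10 endothelial markers was 1.61 to 2.43 CPM in control and 0.789 to 1.25 CPM in the knockout-labelled libraries. Only Cdh5 of the 10 was tested, and it did not pass. The lowest level of Efnb2 in any library was 158 CPM, and the part of endothelial cells in it was not tested.

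Efnb3, a midline guidance ligand, was the least abundant ephrin in control, with 85, 60 and 88 counts there and 132, 182 and 182 in the knockout-labelled libraries. It rose from 2.03 ± 0.304 to 4.53 ± 0.722 CPM (SD, n = 3 each), 2.22-fold (log2 fold change 1.15, SE 0.24, adjusted p = 0.0022 in edgeR). Efnb1, the X-linked ligand known from craniofacial development, had 290, 315 and 348 counts in control against 229, 282 and 186 in the knockout-labelled libraries. Its levels were 8.36 ± 0.549 and 6.37 ± 1.29 CPM (SD, n = 3 each), and the log2 fold change of -0.39 (SE 0.18) did not pass (adjusted p = 0.079 in edgeR). The coefficient of variation of Efnb1 in the knockout-labelled group was 20.3%, against 6.56% from counting alone. The call depended on the library left out: without EphA4 knockout replicate 3 the log2 fold change was -0.19 (adjusted p = 0.23 in edgeR), and without EphA4 knockout replicate 2 Efnb1 passed as lower (log2 fold change -0.51, adjusted p = 0.049 in edgeR; 66.9% of tested genes passed). It also passed in limma-voom (adjusted p = 0.039; 71.5% of tested genes passed) and among genes of at least 5 CPM in 3 libraries (adjusted p = 0.043; 82.5% passed). With a replicate block it did not, and 68.0% of genes passed there.

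Levels of different genes were compared per kilobase of the longest annotated transcript. In control, Efnb2 led at 35.1 ± 1.79 CPM per kilobase (SD, n = 3), followed by Efna1 at 21.6 ± 0.720. Efna3, Efna5 and Efna4 came next at 11.3 ± 0.982, 11.2 ± 0.646 and 10.4 ± 0.359 CPM per kilobase, and neighbours in this order overlapped. Efna2 and Efnb1 overlapped as well, at 2.74 ± 0.560 and 2.57 ± 0.169, and Efnb3 was lowest at 0.639 ± 0.0956. In the knockout-labelled libraries the order was Efnb2 (70.7 ± 2.15 CPM per kilobase), Efna5 (17.6 ± 0.766), Efna1 (9.60 ± 1.17), Efna4 (6.17 ± 0.682), Efnb1 (1.96 ± 0.396), Efnb3 (1.42 ± 0.227), Efna2 (0.269 ± 0.139) and Efna3 (0.236 ± 0.0767). There the libraries of Efnb1 and Efnb3, and those of Efna2 and Efna3, overlapped. Efna3 thus went from the third to the last place. Its place in control depends on the length used, because its transcripts differ in length: with the median transcript (742 bases in place of 2363) it was second in control, at 36.0 ± 3.13 CPM per kilobase, and seventh in the knockout-labelled libraries.

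The balance of the classes turned over. Summed per kilobase, ephrin-A transcripts were 58.0, 56.2 and 57.6 in the control libraries and 36.2, 33.7 and 31.6 in the knockout-labelled ones. Ephrin-B transcripts summed to 36.2, 39.6 and 39.2 in control against 72.8, 77.1 and 72.4 in the knockout-labelled libraries. The A class therefore made up 59.9 ± 1.51% of ephrin transcripts in control and 31.3 ± 1.65% in the knockout-labelled libraries (SD, n = 3 each), with no overlap. Without division by length these shares were 42.1% and 21.8%, so the A class held the larger part of control transcripts only per length, while its share was lower in the knockout-labelled libraries on each scale. The sum over all 8 genes was 95.6 ± 1.32 CPM per kilobase in control and 108 ± 3.51 in the knockout-labelled libraries. No test is given for these sums, because they are scores over chosen genes.

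**Figure D2:**
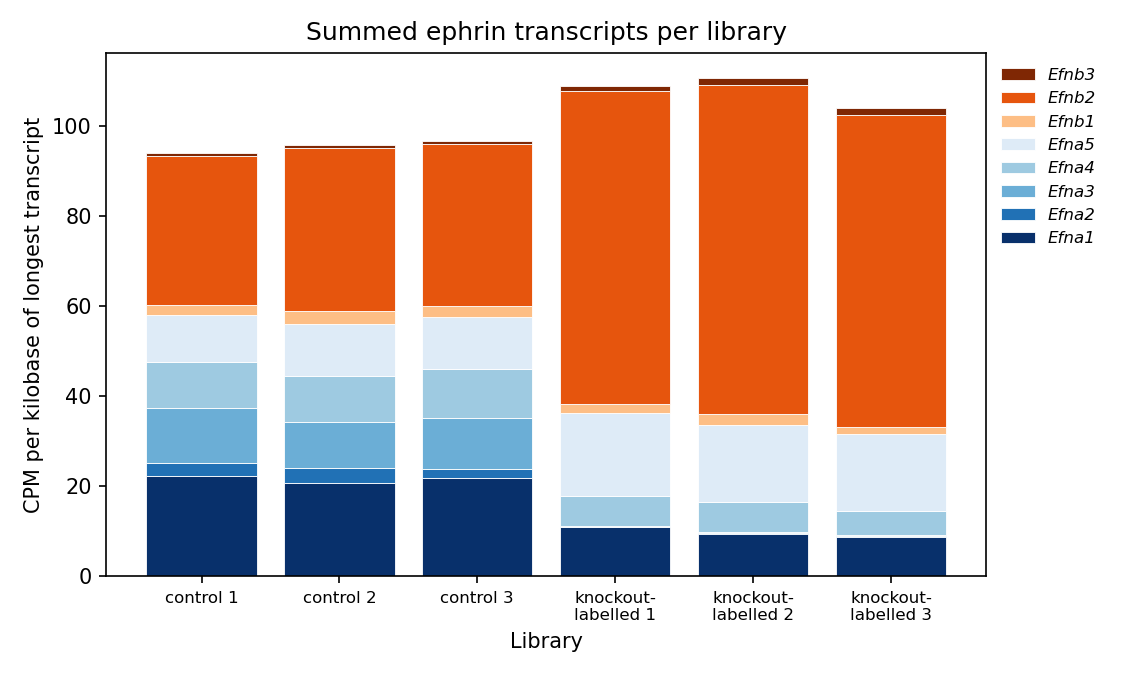
Stacked transcript levels of the 8 ephrin genes in each library, in CPM per kilobase of longest transcript (ephrin-A in blues, ephrin-B in oranges). The total runs from 94.2 to 111 while Efnb2 goes from at most 36.4 in control to at least 69.3 in the knockout-labelled libraries.

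Within each class the composition also differed. Efnb2 made up 91.6 ± 0.219% of ephrin-B transcripts in control and 95.5 ± 0.438% in the knockout-labelled libraries (SD, n = 3 each). Among ephrin-A transcripts per kilobase of the longest transcript, Efna1 was the largest part in control, at 37.7 ± 0.640%, and Efna5 in the knockout-labelled libraries, at 52.0 ± 1.67%. The leading gene of the class in control changed with the length used: it was Efna3 with median transcripts (39.0 ± 2.25%) and Efna5 without division by length (34.9 ± 2.08%), while Efna5 led in the knockout-labelled libraries on each scale. Efna3 went from 19.7 ± 1.41% to 0.696 ± 0.224% of the class. Efna4 had 18.2 ± 0.686% and 18.2 ± 1.20% of the class, its own fall being close to that of the class sum on this scale.

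Of the 14 Eph receptor genes, 8 were tested. Among the EphA receptors 2 of 4 tested genes rose, Epha4 and Epha2, and 1 fell, Epha7. Epha7 went from 3.51 ± 0.629 to 0.349 ± 0.190 CPM (SD, n = 3 each). Epha1 had 23.6 ± 1.13 and 21.8 ± 0.550 CPM and did not pass. Epha5, Epha6 and Epha10 had 0 counts in all libraries, and Epha3 and Epha8 were below the filter. Among the EphB receptors none of 4 tested genes rose and 2 fell, Ephb4 and Ephb6, the latter lacking kinase activity, from 183 ± 8.33 to 136 ± 4.04 CPM and from 2.95 ± 0.316 to 1.09 ± 0.249 CPM. Ephb2 (7.14 ± 0.823 and 8.38 ± 1.34 CPM) and Ephb3 (13.3 ± 0.770 and 13.3 ± 0.0554 CPM) did not pass, and Ephb1 was below the filter. The median log2 fold change was 0.09 over the tested EphA and -0.21 over the tested EphB genes. With 3 of 4 and 2 of 4 called, beside 71.5% of all tested genes (32.7% higher and 38.8% lower), nothing is read from these counts.

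**Figure D3:**
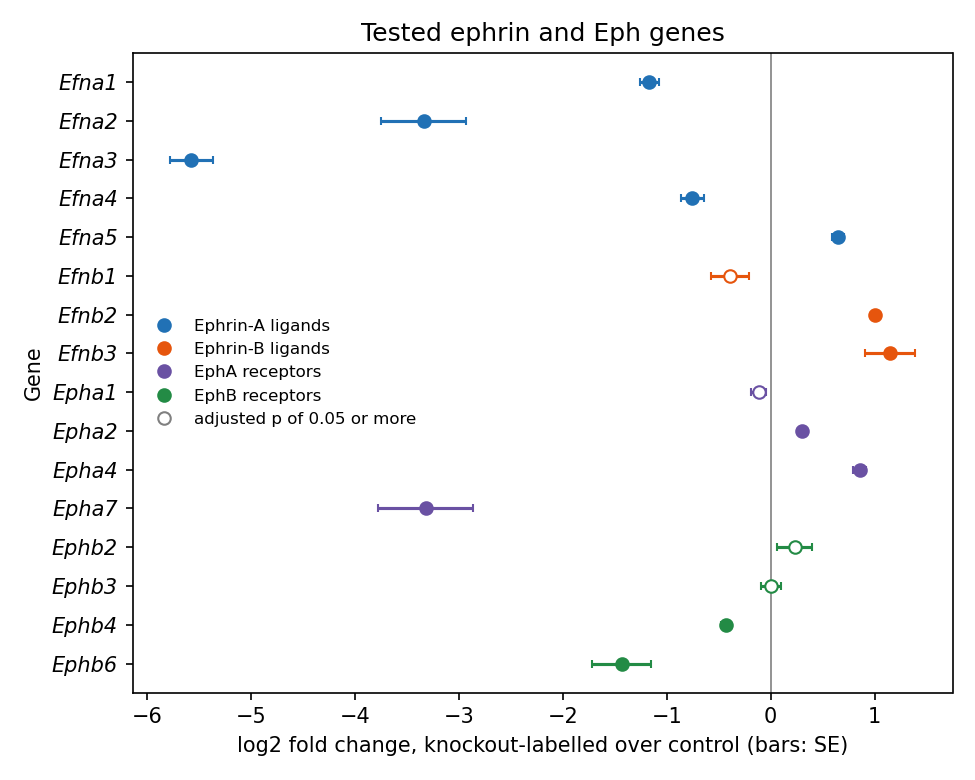
Log2 fold change (knockout-labelled over control) with its SE for the 16 tested ephrin and Eph genes; open circles did not pass an adjusted p of 0.05. Ephrin-A genes reach -5.58 (Efna3), while Efnb2 and Efnb3 lie near 1 and the EphB receptors at or below 0.23.

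Ligand and receptor transcripts were set side by side per kilobase for 4 pairs known to bind. The ratio of Efnb2 to Ephb4 was 0.745, 0.893 and 0.862 in the control libraries and 2.30, 2.32 and 2.16 in the knockout-labelled ones, with no overlap. Whether this ratio lies above or below 1 rests on the transcript lengths used, here the longest of each gene. The ratio of Efna1 to Epha2 was 0.270, 0.268 and 0.280 in control against 0.113, 0.0964 and 0.0862 in the knockout-labelled libraries. Epha4, which rose, was paired only with Efnb2 and Efna5, which rose as well. The ratio of Efnb2 to Epha4 was 4.04 ± 0.182 and 4.49 ± 0.0298, and that of Efna5 to Epha4 was 1.29 ± 0.0687 and 1.12 ± 0.0737 (SD, n = 3 each). No ratio to Epha4 was taken for Efna1, Efna2, Efna3 or Efna4, which fell (log2 fold changes -1.17, -3.34, -5.58 and -0.75). The 2 ratios thus do not show that receptor and ligands rose together in general. The groups did not overlap for the Efnb2 to Epha4 ratio or for the Efna5 to Epha4 ratio, though both moved far less than the other pairs. These are ratios of transcripts, and protein at the cell surface was not measured.

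Proteases that cut ephrins from the membrane or within it were lower in 9 of 14 tested genes and higher in 3, where 38.8% of all tested genes were lower and 32.7% higher. The median log2 fold change of the list was -0.54. Its summed level overlapped between the groups, at 647 to 664 CPM in control and 633 to 658 CPM in the knockout-labelled libraries. The metalloprotease genes Mmp13, Mmp9 and Mmp2 fell from 6.56 ± 1.28, 1.32 ± 0.376 and 1.06 ± 0.233 CPM to 0.376 ± 0.185, 0.128 ± 0.0342 and 0.202 ± 0.127 CPM (SD, n = 3 each). Aph1c, a subunit of gamma-secretase, fell from 0.698 ± 0.156 to 0.174 ± 0.0833 CPM. Adam12 rose from 36.6 ± 0.109 to 124 ± 5.39 CPM, and Psen2, another subunit gene of gamma-secretase, rose by a log2 fold change of 0.27. The call on Psen2 was lost without control replicate 1 or 2 (adjusted p = 0.053 and 0.081 in edgeR), without EphA4 knockout replicate 1 or 2 (adjusted p = 0.065 and 0.053 in edgeR) and with no filter on low counts (adjusted p = 0.19 in edgeR). Adam10, which sheds ephrin-A2 and ephrin-A5, had 161 ± 5.61 and 155 ± 2.57 CPM and did not pass, nor did Aph1a with 26.2 ± 2.68 and 26.4 ± 3.11 CPM.

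Partners of ephrin-B reverse signalling were lower in 14 of 19 tested genes and higher in 5, beside 38.8% lower and 32.7% higher over all tested genes. Their median log2 fold change was -0.41. Rgs3, a PDZ protein that binds the ephrin-B tail and dampens G proteins, fell from 1.91 ± 0.292 to 0.228 ± 0.0675 CPM (mean ± SD, n = 3). The Src-family kinase genes went both ways: Lyn fell from 57.1 ± 1.96 to 23.6 ± 1.27 CPM and Fyn from 55.3 ± 2.13 to 25.3 ± 1.79 CPM, while Src rose from 149 ± 1.99 to 203 ± 7.80 CPM and Yes1 from 33.6 ± 0.916 to 49.2 ± 1.95 CPM. Nck2, an adaptor that binds phosphorylated ephrin-B, fell from 55.9 ± 1.73 to 27.9 ± 0.668 CPM. The Rac activator gene Tiam1 rose from 30.9 ± 3.49 to 61.8 ± 1.55 CPM, and the scaffold gene Cnksr1 from 30.6 ± 1.32 to 41.5 ± 0.977 CPM. Pard6b, a polarity gene, was the fifth that passed as higher (log2 fold change 0.11, adjusted p = 0.04 in edgeR), a call that was lost without control replicate 2 (adjusted p = 0.099), without EphA4 knockout replicate 1 or 2 (0.12 and 0.09), with the replicate block (0.051), with upper-quartile factors (0.071), with library totals alone (0.064), with no filter on low counts (0.51) and in limma-voom (0.052).

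Of 4 tested partners of ephrin-A reverse signalling, Ngfr, Lyn and Fyn fell and Cav1 rose, beside 38.8% lower and 32.7% higher over all tested genes. Ngfr, the p75 neurotrophin receptor, fell from 5.63 ± 0.386 to 0.256 ± 0.0585 CPM (mean ± SD, n = 3), and Cav1, which coats caveolae, rose from 154 ± 5.17 to 185 ± 11.5 CPM. Lyn and Fyn belong to both lists of partners. Genes of GPI anchor synthesis and attachment, on which every ephrin-A protein depends, went both ways, with 12 of 26 tested genes higher and 9 lower. The 21 called are a share near the 71.5% of all tested genes, and the median log2 fold change was 0.17. Pigw and Pigo rose from 6.84 ± 1.14 and 12.1 ± 0.639 CPM to 26.3 ± 0.566 and 26.6 ± 1.85 CPM, Pigg rose from 14.1 ± 2.12 to 25.9 ± 0.521 CPM, and Pigx fell from 24.5 ± 1.07 to 13.1 ± 0.536 CPM.

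Efna1, Efna3 and Efna4 are neighbours on chromosome 3 in the GENCODE M21 gene order, with no other tested gene between them. Of 10 tested genes around this cluster (up to 5 on each side of each ephrin), 8 fell and 1 rose. Their median log2 fold change was -0.86, and 38.8% of all tested genes fell. The membrane mucin gene Muc1 fell from 23.9 ± 1.95 to 2.41 ± 0.197 CPM (mean ± SD, n = 3), Adam15, beyond Efna4, from 110.0 ± 4.61 to 43.9 ± 4.29 CPM, and Slc50a1, the gene next to Efna1, from 31.4 ± 0.204 to 15.5 ± 1.12 CPM. Trim46, Gm15417 and Zbtb7b fell by 2.08, 1.88 and 0.69 on the log2 scale. Krtcap2 and Dpm3 fell by 0.24 and 0.34 on the log2 scale, and Flad1 rose by 0.26. In edgeR the call on Krtcap2 was lost without control replicate 1 or 3 or EphA4 knockout replicate 2 (adjusted p = 0.054, 0.066 and 0.093), that on Dpm3 without control replicate 3 or EphA4 knockout replicate 1 (adjusted p = 0.099 and 0.07), and that on Flad1 without control replicate 2 or EphA4 knockout replicate 2 (adjusted p = 0.055 and 0.07). Efna3 had a lower log2 fold change than any of these 10 genes. Models of antisense genes overlap Efna3 and Efna4, and as no strand setting is known, sense and antisense reads cannot be told apart. The one at Efna4, 4731419I09Rik, had 0.754 ± 0.0219 and 0.961 ± 0.199 CPM and did not pass, and the one at Efna3 was below the filter.

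**Figure D4:**
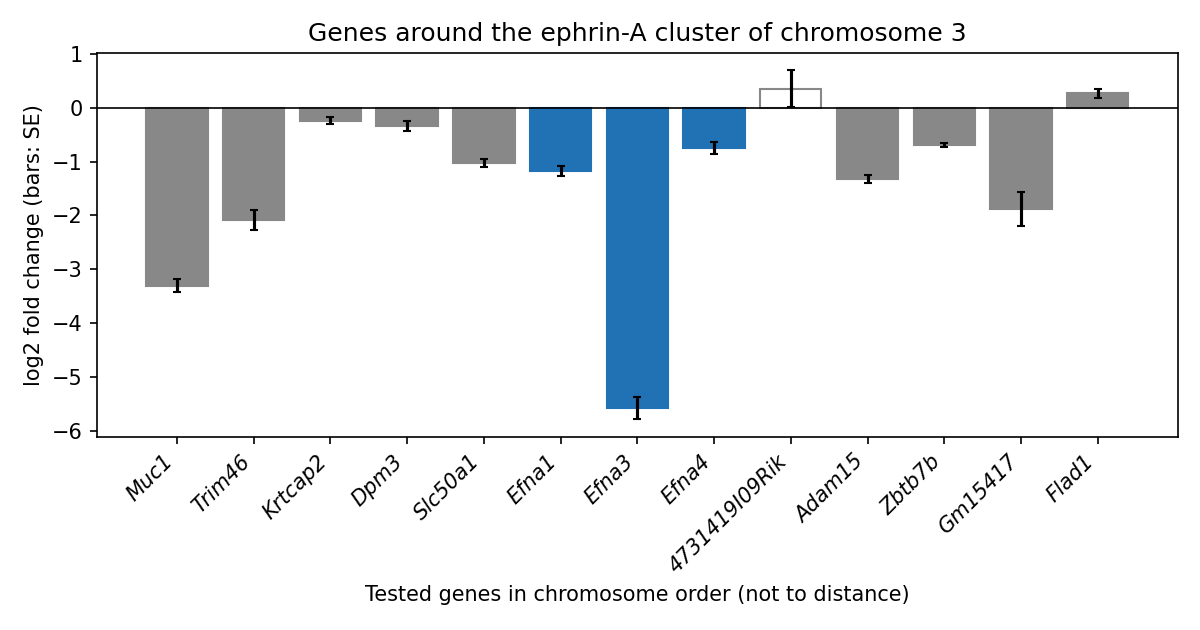
Log2 fold change with its SE for the tested genes around Efna1, Efna3 and Efna4 (blue) in chromosome order; the open bar did not pass an adjusted p of 0.05. Values run from -5.58 for Efna3 to 0.35 for 4731419I09Rik, and the other ephrin bars are of the same size as several neighbours.

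Some markers of other cell types were lower in the same libraries as Efna1 to Efna4. The summed level of 9 fibroblast markers was 48.4 to 51.4 CPM in control and 1.96 to 2.03 CPM in the knockout-labelled libraries. Beside 38.8% lower and 32.7% higher over all tested genes, 5 of 5 tested fibroblast markers fell. Among them the collagen genes Col3a1 and Col1a1 fell from 20.6 ± 0.700 and 14.8 ± 1.89 CPM to 0.0998 ± 0.0824 and 0.0466 ± 0.0807 CPM (mean ± SD, n = 3). Lum was at 0 counts in every library, and Postn had at most 1. Col1a2, too low to be tested, went against the 5 that fell, with control counts of 4, 0 and 1 beside 8, 11 and 10. Thy1, also not tested, went with them, from 1, 6 and 13 counts to 0 in each. Of 6 neuronal markers, 3 were tested and fell, Tubb3, Map2 and Syp, and their list summed to 70.3 to 73.3 CPM in control and 7.35 to 8.39 CPM in the knockout-labelled libraries, while Rbfox3 was at 0 throughout. Leukocyte markers summed to 22.1 to 24.8 CPM in control and 11.8 to 13.4 CPM in the knockout-labelled libraries. Cd3e, Itgam and Adgre1 were at 0. Ptprc, not tested, had control counts of 3, 1 and 10 beside 18, 16 and 7, and its groups overlapped. Of 2 tested, 1 was lower, Cd68 (18.2 ± 1.32 to 4.24 ± 0.386 CPM), and 1 higher, Csf1r (4.72 ± 0.262 to 7.75 ± 0.699 CPM). Whether other cell types were present, and what part they had in the ephrin levels, was not tested. In such bulk samples fewer cells of a type, less RNA per cell and expression by the MOC2 cells themselves cannot be told apart.

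The genes whose level followed each ephrin most closely over the 6 libraries were found by Euclidean distance between log2 CPM profiles centred on their means. For Efnb2 they were Ufm1, 2410131K14Rik and Lin7c (distances 0.031 to 0.0577), and for Efna5 Taf2, Fam83d and Stard7 (0.0562 to 0.0678). Those nearest to Efna1 were Pnkd, Tmem106a and Coasy (0.0814 to 0.0988), and to Efna4 Gpr19, Ngrn and Zfp52 (0.0783 to 0.1). Efna3 was nearest to Chsy3, AC161119.1 and Espn (0.269 to 0.36), and Efna2 to Reps2, Kcnip3 and Ankrd33b (0.453 to 0.6). Efnb1 was nearest to Cnep1r1, Tmem170 and Gm44950 (0.166 to 0.182) and Efnb3 to Fgd4, Gm43143 and AC109138.6 (0.147 to 0.268). With 2 groups of 3 libraries, likeness of this kind is mostly a like difference between the groups, and the prior count of 2 shrinks the profiles of low genes.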

How the data were processed

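The authors deposited raw read counts per gene symbol for 6 polyA RNA libraries in 1 table, with no normalization. The submitters' processing notes name STAR and GRCm39. Which counting tool, strand setting and annotation were used is not given in the sources used here. All 55418 symbols of the table occur in GENCODE M21, which gave chromosomes, gene order and transcript lengths. That release is on an earlier build, so no coordinates are given for counts. Upstream sequences are RefSeq's, build GRCm38.p6.

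From the deposited counts, filterByExpr kept 15199 of 28042 genes with any count. They were scaled by TMM and tested with edgeR 4.0.16 (glmQLFit, glmQLFTest, group only, two-sided, R 4.3.3) with Benjamini-Hochberg adjustment over all tested genes and a threshold of 0.05. SEs were taken as the size of the log2 fold change over the root of F. CPM are TMM-scaled, and 1 count equals 0.024 to 0.0283 CPM. The scripts were tested on simulated data. Every pair of libraries differed by more than sampling noise (lowest chi-square per degree of freedom 4.41 over genes with 10 or more counts in the pair). Members and lists were chosen with earlier results of these data known. Named were all ephrins, Epha4, up to 4 called genes per list by size of change and those behind counts of up to 5, the genes around the chromosome 3 cluster, and the 3 most alike profiles per ephrin. Alternatives were other factors and filters, limma-voom 3.58.1, DESeq2 1.42.0, glmTreat, a threshold of 0.01, a replicate block and leaving out each replicate. The values of 1 listed protease gene are not reported here. Pigy was listed but had no row of that symbol in the table. Figures were drawn with matplotlib 3.10.9.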

Additional observations from a re-analysis of the deposited data

How the results depend on the processing

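The number of ephrin genes called was 7 in the reported fit, 5 with glmTreat against a fold of 1.5, 6 with a minimum of 5 CPM in 3 libraries, which left out Efna2 and Efnb3, 8 in limma-voom, and 7 to 8 without 1 replicate. Of all tested genes, 71.5% passed in the reported fit, 36.0% with glmTreat, 82.5% with that minimum and 71.5% in limma-voom. Without 1 replicate 63.4% to 71.9% passed, and with a replicate block 68.0%. None of the 126 alternative values of the 8 single ephrin genes changed sign. With the replicate block 7 ephrin genes passed and, among the named genes, Pard6b alone lost its call (adjusted p = 0.051 in edgeR). Samples with the same number did not deviate together (r = -0.0029, 0.029 and 0.0083 over 15199 genes). With glmTreat, which 36.0% of all tested genes passed, the counts of calls became 8 of 19 for ephrin-B partners and 4 of 26 for GPI anchor genes. They became 15, in place of 40, for all 60 tested neighbours of the ephrin loci. For EphB receptors the count became 1 with glmTreat and also with a minimum of 5 CPM in 3 libraries. The ephrin-A share was 42.1% in control and 21.8% in the knockout-labelled libraries without division by length, and 27.8% in the latter with median transcript lengths. Only genes that did not pass changed sign. Ephb3 had log2 fold changes of -0.0087 with upper-quartile factors, -0.0048 with library totals and -0.062 with no filter, and -0.0031 to 0.096 without 1 replicate. Aph1a had -0.0039 with upper-quartile factors, -0.059 with no filter and -0.032 to 0.15 without 1 replicate, and Adam10 had -0.035 to 0.00067 without 1 replicate. The cause was not tested. Among the ephrins, depth limits Efna2 and Efna3 in the knockout-labelled libraries most, where they had 10 to 32 counts per library. Some other named genes had fewer counts there, such as Mmp9 with 6, 4 and 4 and Rgs3 with 8, 11 and 6.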

Other observations

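Around the other ephrin loci the neighbours were counted in the same way, where 32.7% of all tested genes rose and 38.8% fell. Their distances in GENCODE M21 were unlike those of the chromosome 3 cluster, where the gap was at most 96501 bases. Gaps reached 5376047 bases at Efna5, 3964956 at Efnb2 and 2967577 at Efnb1, so many of these genes are not close by. Of the 10 nearest tested genes, 4 rose and 0 fell around Efnb2, 5 rose and 1 fell around Efnb1, 2 rose and 5 fell around Efnb3, 3 rose and 4 fell around Efna5, and 1 rose and 6 fell around Efna2. At Efnb2, 3 of the 10 are models of unproven genes on the same strand within the gene, whose reads cannot be told apart from those of Efnb2. The most abundant of them, E230020D15Rik, had 0.677 ± 0.386 CPM in control and 3.34 ± 0.106 CPM in the knockout-labelled libraries (SD, n = 3 each).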
